A study of Mus musculus with 2 samples.

Results

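Cytosine-poor regions are the differentially methylated regions in which the authors counted under 2 cytosines per 100 bases. They were chosen from the deposited table of regions, mm10, chromosomes 1 to 19, by dividing the number of cytosines by the length, and no methylation value entered the choice. The rule kept 1300 of 27774 autosomal regions (4.68%), out of 28141 regions in all. They covered 635 kb, which was 8.83% of the bases in autosomal regions and 3.09% of the cytosines.

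The table compares 2 libraries of whole-genome bisulfite sequencing, in which bisulfite changes unmethylated cytosines and leaves methylated ones. One came from CD137+ cells and the other from PDGFRα+ cells, labelled CD140+, both adipose progenitors of the mouse strain C57BL/6. CD137, encoded by Tnfrsf9, is a receptor used to mark precursors of beige adipocytes, and PDGFRα is a growth factor receptor of mesenchymal progenitors. Each population was sorted with magnetic beads from SAT or VAT, grown, differentiated with a cocktail that induces adipocytes and then given the glucocorticoid dexamethasone at 1 µM, so both groups carry the treatment and neither is an untreated control. The labels used here state no age or sex, no number of animals, and not which depot gave which library. The identity of the cells could not be checked from expression, since only DNA was measured. Each group had 1 library, so no difference below has a replicate check and no test between the groups was made. Read depth is not known, so levels carry no interval. Intervals on shares are 95% Wilson intervals, which cover counting error only and treat regions as independent.

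In mammalian DNA most methylation sits on cytosines followed by guanine, the CpG dinucleotide. CpGs are sparse over most of the genome because methylated cytosines mutate readily, and they are dense in CpG islands, many of which lie at gene starts and stay unmethylated. Differences between cell types are often found at enhancers, which tend to be poor in CpGs, so sparse regions are a place where cell identity can be read. In a library made from many cells, a level between the extremes can come from a mixture of cells or of alleles, and these cannot be told apart.

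What the table counts was checked on sequence. RefSeq windows of 300 bases around gene starts, 250 of them upstream, contained 86 regions whole. Some of these starts lie inside a gene span and not at its beginning. In all 86 the base after the deposited start and the deposited end lay in a CpG, so starts are counted from 0 and are printed here with 1 added. The deposited number of cytosines equalled the CpG cytosines of both strands in 43 of the 86 and lay below it in the other 43. It was never above it. Counted cytosines in these regions are thus CpG cytosines of either strand, and in sum 689 of 851 (81.0%) were counted. They made up 12.2% of all 5637 cytosines in these sequences. Of the 86 regions only 1 was cytosine-poor, so these shares describe denser regions and not the cytosine-poor set.

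Few cytosine-poor regions touched a gene start. Of the 1265 on chromosomes with such windows, 21 (1.66%, 1.09 to 2.52) overlapped a window, against 1.61% (1.47 to 1.78) of the other autosomal regions. The upstream parts of 6 of these regions at protein-coding genes are shown because they let the rule be read on the sequence. Sequences are from RefSeq on GRCm38.p6, the assembly of mm10, and run 5′ to 3′ towards the start of their window. In Atxn7l1 and Wbp1l that start, at 33315405 and 46623401, lies inside the gene span, which begins at 33146968 and 46599106. Capitals mark CpGs, the only motif searched, which reads the same on both strands and occurs in 94.8% of 31396 autosomal windows.
Ogn, chr13:49607765-49608014, plus strand: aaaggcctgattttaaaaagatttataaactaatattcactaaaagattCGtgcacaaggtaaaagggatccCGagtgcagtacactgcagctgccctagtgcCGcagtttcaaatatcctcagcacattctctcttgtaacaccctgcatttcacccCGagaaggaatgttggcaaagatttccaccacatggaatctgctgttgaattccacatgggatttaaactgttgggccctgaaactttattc
Cldn15, chr5:136967619-136967868, plus strand: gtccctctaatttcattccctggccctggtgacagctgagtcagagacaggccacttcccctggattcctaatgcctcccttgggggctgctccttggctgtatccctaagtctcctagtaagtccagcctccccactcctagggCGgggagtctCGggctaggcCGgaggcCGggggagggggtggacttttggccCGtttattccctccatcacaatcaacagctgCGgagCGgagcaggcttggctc
Il7r, chr15:9529877-9530126, minus strand: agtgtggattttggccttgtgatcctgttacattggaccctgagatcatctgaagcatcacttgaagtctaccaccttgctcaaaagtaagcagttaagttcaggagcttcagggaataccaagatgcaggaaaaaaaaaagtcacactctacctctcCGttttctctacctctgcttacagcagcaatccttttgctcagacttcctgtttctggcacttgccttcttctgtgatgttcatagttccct
Gpr65, chr12:98268524-98268634, plus strand: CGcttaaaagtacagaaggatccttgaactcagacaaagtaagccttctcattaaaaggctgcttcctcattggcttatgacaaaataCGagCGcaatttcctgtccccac
Atxn7l1, chr12:33315155-33315404, plus strand: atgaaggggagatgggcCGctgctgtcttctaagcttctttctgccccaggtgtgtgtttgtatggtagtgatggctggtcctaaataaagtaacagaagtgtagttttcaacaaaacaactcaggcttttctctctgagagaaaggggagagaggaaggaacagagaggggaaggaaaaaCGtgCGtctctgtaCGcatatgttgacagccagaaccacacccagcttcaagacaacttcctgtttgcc
Wbp1l, chr19:46623156-46623400, plus strand: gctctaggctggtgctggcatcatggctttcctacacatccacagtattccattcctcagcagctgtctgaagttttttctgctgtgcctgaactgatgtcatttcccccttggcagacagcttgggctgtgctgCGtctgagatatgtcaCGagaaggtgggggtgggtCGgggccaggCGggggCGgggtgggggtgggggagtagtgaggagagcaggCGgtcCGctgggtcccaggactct

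The stretch upstream of Ogn, which encodes the matrix proteoglycan osteoglycin, held 4 CpGs in 250 bases. The stretch of Il7r, the interleukin 7 receptor gene of lymphocytes, held 1 CpG in 250 bases. The stretches of Gpr65, a receptor gene of immune cells, and of Atxn7l1 held 3 CpGs in 111 bases and 4 in 250. Those of Cldn15, a tight junction gene, and Wbp1l were richer, with 7 CpGs in 250 and 7 in 245 bases. The Wbp1l stretch thus holds 7 CpGs within a region for which the authors counted 4 cytosines in 300 bases.

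The name of these regions describes the counted cytosines, and near gene starts the DNA was not always as sparse. Over the 21 regions with some sequence, 4483 bases held 145 CpG cytosines, or 3.23 per 100 bases. The table gave 1.50 per 100 over the whole of the same regions. These values cover unlike stretches, the part near a gene start and the whole region, so their gap does not measure uncounted CpGs. A region at the noncoding gene Gm41331 had sequence over all its 221 bases, with 4 CpG cytosines, as many as were counted. In 2 regions, at Wbp1l and at the noncoding gene Gm46645, the overlapping part alone held more CpG cytosines (19 and 17) than the 4 counted in the whole region. Of 18 regions with at least 100 bases of sequence, 6 stayed under 2 per 100 in the overlapping part and 12 did not. The other autosomal regions had 6.42 per 100 by sequence in their overlapping parts and 4.53 by the table. Gene starts are richer in CpGs than most of the genome, and the sequence of the remaining cytosine-poor regions was not used here.

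By construction the regions were long, because the table lists no region with fewer than 4 cytosines, so that under 2 per 100 needs at least 201 bases. Their lengths ran from 201 to 2989 bases with a median of 414.5, and their cytosines from 4 to 59 with a median of 6. A cytosine was counted every 59.3 bases at the median. The lowest number allowed, 4, was held by 326 regions (25.1%), and 71 regions (5.46%) reached 1000 bases. The other autosomal regions are therefore given whole (26474) and, for direction, levels, size of difference and gene context, also restricted to those of at least 201 bases (13677). The restricted set is still shorter, with a median of 318 bases, so that length is not matched by it.

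Over all lengths, cytosine-poor regions were more often lower in the PDGFRα+ library than other regions were. Of the 1300, 1087 were lower (83.6%, 81.5 to 85.5) and 213 were higher (16.4%, 14.5 to 18.5), against 77.7% lower and 22.3% higher over all autosomal regions. The share higher was 22.6% (22.1 to 23.1) in the other autosomal regions and 20.4% (19.8 to 21.1) in those of at least 201 bases. Within classes of length the share higher was 17.7% against 21.4% in others at 201 to 300 bases, 15.2% against 21.1% up to 400 and 15.7% against 19.2% up to 600. Above 600 and up to 1000 bases the order turned, with 16.3% (12.2 to 21.5) against 15.5% (13.5 to 17.8), and above 1000 bases it was 18.3% (11.0 to 28.8) against 25.2% (19.0 to 32.5). The intervals overlapped in all 5 length classes. No test of this difference was made, since regions are not replicates.

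In the 1087 lower regions the level in the PDGFRα+ library had a median of 0.196 (quartiles 0.138 and 0.263), and in the CD137+ library 0.826 (0.765 and 0.898). In the 213 higher regions PDGFRα+ had a median of 0.884 (0.827 and 0.929) and CD137+ of 0.284 (0.227 and 0.353). The median difference, PDGFRα+ minus CD137+, was -0.616 in the lower and 0.593 in the higher regions. The other lower autosomal regions had medians of 0.266 and 0.819 and a difference of -0.521, and the other higher ones 0.879 and 0.346 and a difference of 0.504. In other regions of at least 201 bases the lower ones had 0.246 and 0.815 with a difference of -0.540, and the higher ones 0.875 and 0.328 with 0.524. Cytosine-poor regions had the wider median difference against both sets, and mainly on the side of the less methylated library.

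**Figure D1:**
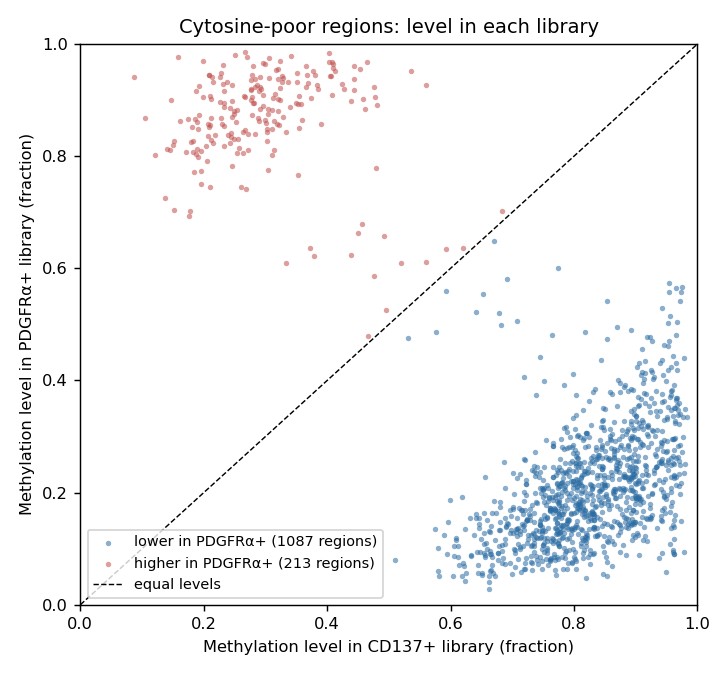
Each point is a cytosine-poor region, with its methylation level in the CD137+ library on the horizontal axis and in the PDGFRα+ library on the vertical axis, both as fractions. The 1087 regions lower in PDGFRα+ gather at the lower right and the 213 higher ones at the upper left, with few points near the dashed line of equal levels.

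A difference of at least 0.5 was found in 1162 of the 1300 (89.4%, 87.6 to 90.9), against 58.1% of all autosomal regions. Among the other regions it was 56.6%, and 66.3% in those of at least 201 bases. Counted by direction, 984 lower regions (90.5% of 1087) and 178 higher regions (83.6% of 213) passed 0.5, where 58.0% and 51.8% of the other regions did, and 67.4% and 61.9% of those of at least 201 bases. By length, the share past 0.5 was 86.8% against 60.4% at 201 to 300 bases and 87.9% against 81.9% above 600 and up to 1000. Above 1000 bases it was the lower one, 83.1% of 71 regions against 89.7% of 155. As shares of all 1300, lower regions past 0.5 were 75.7% and higher ones 13.7%, against 46.3% and 11.8% over all autosomal regions. A level below 0.2 in 1 library with a level above 0.8 in the other was seen in 263 cytosine-poor regions (20.2%, 18.1 to 22.5), in 6.53% of the other regions and in 7.13% of the longer ones. Levels close to 0 were rare on both sides, with 4 cytosine-poor regions (0.308%) below 0.05 in 1 library and 0.468% of the others.

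From 1.5 cytosines per 100 bases upward, the share higher and the level of the less methylated library rose with density, while the sparser classes did not follow this order. The share of regions higher in PDGFRα+ was 18.9% (17 of 90 regions, 12.1 to 28.2) below 1 cytosine per 100 bases, 17.6% from 1 to 1.5 and 15.7% from 1.5 to 2. It was 17.2% from 2 to 2.5, 20.1% from 3 to 4, 25.9% from 6 to 10 and 29.9% (27.9 to 32.0) at 10 and above. The intervals of the classes below 3 per 100 overlap, so the rule of 2 per 100 marks no step in direction. The level of the more methylated library hardly moved, with medians of 0.838 from 1.5 to 2 and 0.828 at 10 and above, while that of the less methylated library was 0.210 and 0.361. Below 1 per 100 the less methylated median was 0.241 and 74.4% of regions passed a difference of 0.5, against 0.207 and 88.7% from 1 to 1.5. Median length fell from 652 bases in the sparsest class to 72 in the densest, so these classes do not separate density from length. Just inside the rule, from 1.9 to 2.0 per 100, 244 regions had median levels of 0.213 in PDGFRα+ and 0.794 in CD137+. Just outside, from 2.0 to 2.1, 283 regions had 0.248 and 0.809.

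**Figure D2:**
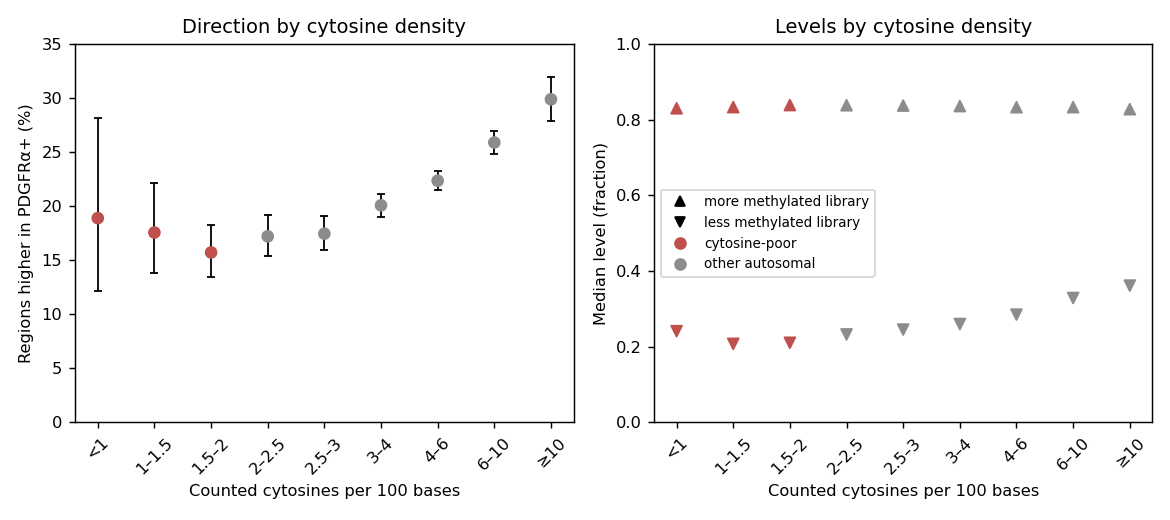
The horizontal axes give the counted cytosines per 100 bases in classes, with cytosine-poor classes in red and the other autosomal classes in grey. Left, the percentage of regions higher in PDGFRα+ with Wilson 95% intervals lies between 15.7 and 18.9 in the red classes and reaches 29.9 in the densest. Right, the median level (fraction) of the more methylated library lies between 0.828 and 0.838 while that of the less methylated library lies between 0.207 and 0.361.

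The number of cytosines in a region also bears on which regions a caller can list, so regions with equal numbers were set side by side. With 4 cytosines the median absolute difference was 0.601 in cytosine-poor and 0.552 in other regions. With 7 to 9 it was 0.621, against 0.509 in other regions and 0.558 in those of at least 201 bases. With 15 or more it was 0.613, against 0.516 and 0.521. The cytosine-poor median was the larger in each of the 6 classes. The share of higher regions was below that of the other regions in each class too (16.3% against 23.0% with 4 cytosines, 15.1% against 23.2% with 7 to 9). Against regions of at least 201 bases it was above in the class of 6 cytosines (18.5% against 17.6%) and below in the other classes that had such regions. How the caller selected regions is not given in the sources used here, and its part in these values was not tested.

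**Figure D3:**
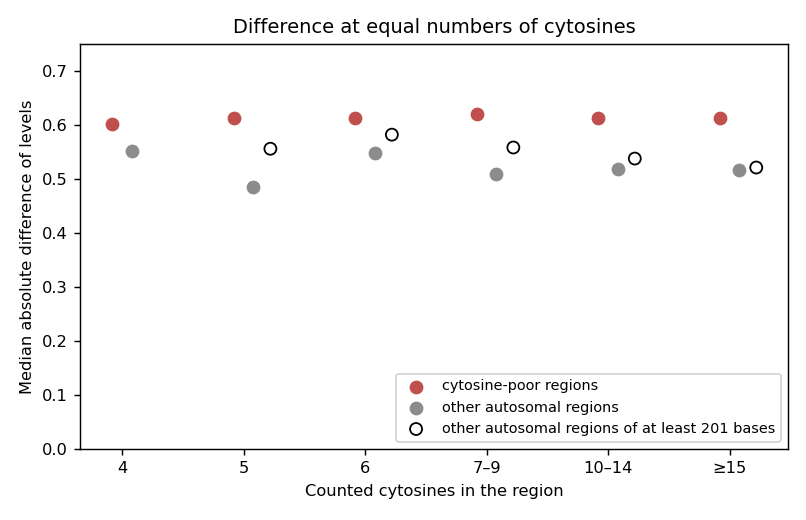
The horizontal axis gives the number of counted cytosines in a region, and the vertical axis the median absolute difference between the libraries (fraction). Cytosine-poor regions (red) lie between 0.601 and 0.621, above the other autosomal regions (grey) in every class and above those of at least 201 bases (open circles) in the 5 classes that have them.

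The area statistic of the authors grows with the number of cytosines. Per cytosine its size had a median of 6.41 in cytosine-poor and 6.37 in the other regions, but 6.89 in the other regions of at least 201 bases. The wider differences thus did not come with a larger statistic per cytosine, and against the longer regions it was smaller.

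A few regions departed from the rest. An absolute difference under 0.3 was seen in 27 cytosine-poor regions (2.08%) and in 0.631% of the others. Of these 27, 15 were higher in PDGFRα+. They had a median of 88.5 bases per cytosine, against 59.2 in the remaining cytosine-poor regions, and 12 of them lay below 1 cytosine per 100 bases. In 2 autosomal regions the sign of the statistic was opposite to that of the difference, and both were cytosine-poor. One lay in Smyd3 (0.580 in PDGFRα+ and 0.691 in CD137+) and the other outside genes on chromosome 4 (0.559 and 0.593). The sparsest region of all held 5 cytosines in 2084 bases on chromosome 14, with nearly equal levels of 0.650 and 0.670. Other very sparse regions were far apart in level, as in Timp2, an inhibitor gene of matrix metalloproteinases (4 cytosines in 806 bases, 0.0921 against 0.942).

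The region with the largest statistic among those lower in PDGFRα+ lay in Cdon, which encodes a cell surface co-receptor of hedgehog signalling. It spanned 2989 bases (chromosome 9, 35423679 to 35426667) with 59 cytosines, the most in any cytosine-poor region, at 0.0834 in PDGFRα+ against 0.722 in CD137+. The next overlapped both Cldn15 and Fis1, a mitochondrial fission gene (chromosome 5, 136966041 to 136968820), at 0.175 against 0.814. In Nfib, a nuclear factor I transcription factor gene, a region of 2104 bases (chromosome 4, 82501431 to 82503534) had 0.0559 against 0.625.

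The region over the start of Ogn (chromosome 13, 49607565 to 49610288), whose upstream sequence is printed above, had 0.181 against 0.849. It also lies within the span of Cenpp, a centromere protein gene. The list went on with Nr1h4, the gene of the bile acid receptor FXR (0.263 against 0.893), and Adamtsl1, a matrix glycoprotein gene (0.0990 against 0.703). Foxn3, a forkhead gene (0.311 against 0.878), and Pkdcc, a secreted kinase gene (0.320 against 0.918), completed it. All of these regions held more than 20 cytosines.

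Larger differences occurred in regions with few cytosines. Atp11a, a phospholipid flippase gene, had 0.0582 in PDGFRα+ and 0.9497 in CD137+ over 6 cytosines, the largest difference of any cytosine-poor region (-0.891). Fosl2, an AP-1 transcription factor gene (0.0939 against 0.978), Sdc2, the gene of the proteoglycan syndecan-2 (0.0914 against 0.963), Smim1 (0.0911 against 0.961) and Vac14 (0.0936 against 0.960) followed, each with 4 to 6 cytosines. With so few cytosines and unknown depth, these levels rest on little data.

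Among regions higher in PDGFRα+, Mef2c led by statistic. It encodes a transcription factor of muscle, endothelial and immune cells, and its region of 1537 bases (chromosome 13, 83526760 to 83528296) had 0.919 in PDGFRα+ and 0.385 in CD137+ over 26 cytosines. Hivep3, a zinc finger gene, had 0.976 against 0.158 (chromosome 4, 120052930 to 120053845), which was also the second largest difference in this direction. Akap13, the gene of a scaffold protein that anchors protein kinase A, had 0.898 against 0.439 in its longest region and 0.942 against 0.0864 in another of 4 cytosines.

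Stk17b, a kinase gene of lymphocytes, had 0.864 against 0.299. Atxn7l1, whose sequence is printed above, had 0.899 against 0.147. The remaining ones by statistic were Myo18a (0.880 against 0.250), Sorcs2 (0.846 against 0.267) and Ikzf1, the lymphoid transcription factor gene of Ikaros (0.900 against 0.276). By difference, Lctl (0.945 against 0.208) and Pld4, a gene of immune cells (0.963 against 0.231), came next. In these 11 regions the CD137+ level ran from 0.0864 to 0.439.

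Near gene starts higher regions were more frequent than elsewhere, in cytosine-poor and other regions alike. Within 2 kb of a protein-coding start 22 of 62 cytosine-poor regions were higher (35.5%, 24.7 to 47.9), against 36.6% (34.0 to 39.3) of the other regions there. Of the 11 protein-coding genes with a window overlapped by a cytosine-poor region, 6 were higher and 5 lower in PDGFRα+. The higher ones were Il7r (0.895 in PDGFRα+ and 0.282 in CD137+), Gpr65 (0.893 against 0.358), Rgs19 (0.932 against 0.351), Tlr12, a toll-like receptor gene (0.773 against 0.195), Mbnl1, a splicing regulator gene (0.940 against 0.305), and Atxn7l1. The lower ones were Ogn, Cldn15, Wbp1l (0.152 against 0.725), Fam186a (0.362 against 0.943) and 5031439G07Rik (0.127 against 0.796). In Atxn7l1, Rgs19, Wbp1l and Fam186a the window lay well inside the gene span and not at its beginning.

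Higher regions lay nearer to gene starts than lower ones. The distance to the nearest start of a protein-coding gene had a median of 30.9 kb in the 207 higher cytosine-poor regions that could be placed and 77.6 kb in the 1058 lower ones. Within 2 kb of a start lay 22 of the higher (10.6%, 7.12 to 15.6) and 40 of the lower regions (3.78%, 2.79 to 5.11). Other autosomal regions showed the same order, with 8.03% of the higher and 4.05% of the lower within 2 kb. Both directions together, 4.90% of cytosine-poor and 4.95% of other regions lay that near.

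The gene context was near that of the other regions inside gene spans, while somewhat more cytosine-poor regions lay far from genes. Spans of protein-coding genes held 645 cytosine-poor regions (49.6%, 46.9 to 52.3), against 52.7% (52.1 to 53.3) of the others. Spans of other genes held 132 (10.2% against 9.83%), the 2 kb beside a gene held 48 (3.69% against 4.60%), and 475 lay farther away (36.5%, 34.0 to 39.2, against 32.8%). Farther than 100 kb from any protein-coding gene lay 254 (19.5%, 17.5 to 21.8) of the cytosine-poor and 15.7% of the other regions. Farther than 500 kb lay 41 (3.15%, against 1.78% of the others), all of them lower in PDGFRα+. Of the 472 other regions that far, 433 were lower too. Genes that held a cytosine-poor region had a median length of 124 kb per region, against 131 kb for the others.

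The share higher in PDGFRα+ was 18.4% (15.6 to 21.6) inside protein-coding spans, where the other regions had 25.1%. Farther than 2 kb from any gene it was 12.8% (10.1 to 16.2), against 17.2%. In the other regions of at least 201 bases these shares were 23.3% (22.3 to 24.3) and 14.5% (13.5 to 15.6), so that away from genes the intervals overlapped. Within 2 kb of a gene 14 of 48 were higher (29.2%, 18.2 to 43.2), close to the 28.2% of other regions there. Exons and introns were not separated.

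**Figure D4:**
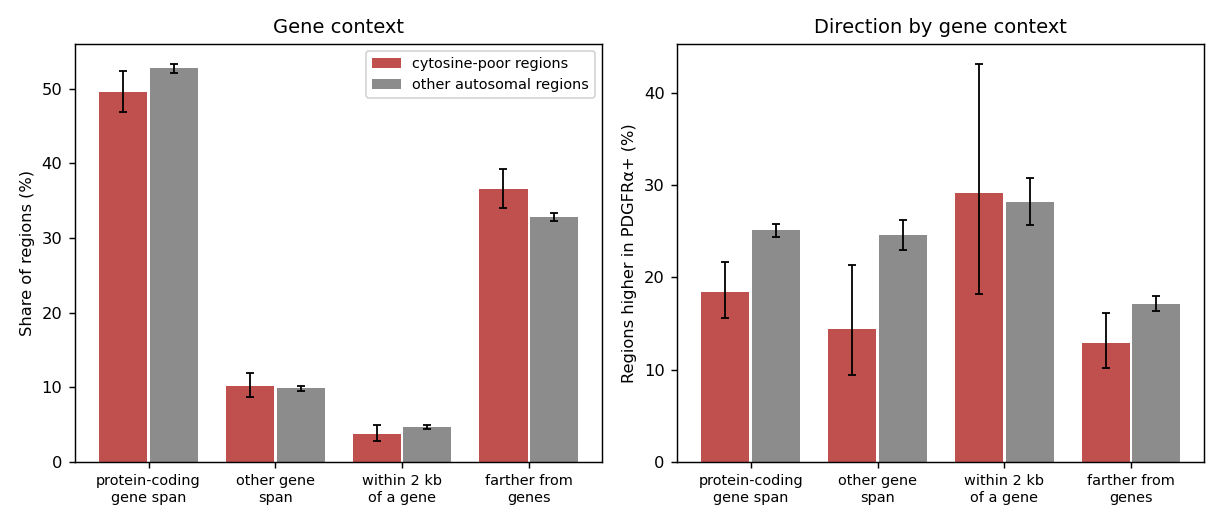
Bars give percentages with Wilson 95% intervals for cytosine-poor (red) and other autosomal regions (grey) in 4 gene contexts. Left, the share of regions in each context is 49.6% against 52.7% in protein-coding spans and 36.5% against 32.8% away from genes. Right, the share higher in PDGFRα+ is below that of all other autosomal regions inside gene spans and away from genes (12.8% against 17.2%, but 14.5% in those of at least 201 bases), and overlaps it within 2 kb of a gene.

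Of the 1300 cytosine-poor regions 43 (3.31%, 2.46 to 4.43) had another within 10 kb, and the median distance to the nearest was 478 kb. They are 4.68% of autosomal regions, so a low share follows from their number, and no equally rare set was compared. The cytosine-poor regions formed 20 pairs and 1 run of 3, and the other 1257 stood alone. With regions of any kind the picture was that of the table as a whole, with 38.4% (35.8 to 41.1) of cytosine-poor and 38.9% of other regions having a neighbour within 10 kb.

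Neighbours mostly shared a direction. Of 22 consecutive pairs of cytosine-poor regions within 10 kb, 20 had the same direction, 8 both higher and 12 both lower. Of 579 consecutive pairs with at least 1 cytosine-poor region, 478 (82.6%) agreed in direction, against 78.0% of 5736 pairs of other regions. With most regions lower, many pairs agree by the share alone.

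The run of 3 lay in Dcn, which encodes decorin, a small proteoglycan that binds collagen (chromosome 10, 97479500 to 97518163). Its regions, all lower in PDGFRα+, lay between 97480521 and 97486786. The levels were 0.0566, 0.0543 and 0.155 in PDGFRα+ and 0.645, 0.699 and 0.756 in CD137+, over 11, 8 and 18 cytosines. All 3 thus had little methylation in PDGFRα+ and an intermediate to high level in CD137+.

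The tightest pair, 760 bases from end to end, lay in Thada, whose values follow. Another, in Dcaf12, was higher in PDGFRα+ (0.965 and 0.942 against 0.2995 and 0.404). A pair on chromosome 13 (82316798 to 82317939), 519643 bases from Cetn3, the nearest protein-coding gene, was lower (0.0966 and 0.0402 against 0.664 and 0.662). A pair in Lrrfip1 was higher (0.932 and 0.923 against 0.337 and 0.476).

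Over all 20665 autosomal protein-coding genes, named or not, 596 (2.88%) held a cytosine-poor region. That was 10.3% of the 5762 genes with a region of any kind. Named ones were 591, 476 of them with lower regions only, 106 with higher only and 9 with both. Most held 1 (538 genes), 45 held 2, and 8 held at least 3. Of the 53 genes with at least 2, 40 had lower regions only, 4 had higher only (Dcaf12, Elf1, Lrrfip1 and Sorcs2, named after their values were seen) and 9 had both.

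Thada, a gene linked to thermogenesis and to diabetes risk, held the most. Its 5 cytosine-poor regions, of 12 regions in all, were all lower in PDGFRα+, with levels of 0.166, 0.0917, 0.160, 0.351 and 0.0471 against 0.804, 0.785, 0.964, 0.963 and 0.819 in CD137+. Itpr1, the gene of a calcium release channel, held 4, of which 3 were lower (0.308, 0.236 and 0.119 against 0.789, 0.861 and 0.609) and 1 higher (0.857 against 0.319). Akap13 held 3, with 1 lower (0.115 against 0.609) and the 2 higher ones given above.

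The other 5 genes with 3 regions had lower ones only. Besides Dcn these were Adamtsl1 (mean level 0.115 in PDGFRα+ and 0.722 in CD137+), Srgap2 (0.271 and 0.888), Plxdc2 (0.294 and 0.823) and Zbtb20, a zinc finger repressor gene (0.187 and 0.798). These are not all long genes, as Dcn spans 38.7 kb and Adamtsl1 915 kb.

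A list of extracellular matrix genes, which encode collagens, proteoglycans and their processing enzymes, held many of these regions. The list was drawn up with earlier results of these data known and does not hold every matrix gene. Of its 48 genes 36 had a region of any kind and 15 a cytosine-poor one. The share was 10.3% over all protein-coding genes with a region. All 20 cytosine-poor regions of the list were lower in PDGFRα+. They made up 13.2% of the 152 regions in these genes, against 4.42% of the regions in all protein-coding spans. PDGFRα+ had a median level of 0.133 there and CD137+ of 0.776. The median difference was -0.627, against -0.598 for all cytosine-poor regions in protein-coding spans, 81.6% of which were lower. Outside the list, Col18a1, a basement membrane collagen gene named after its values were seen, had a cytosine-poor region that was higher in PDGFRα+ (0.664 against 0.450). Of the 132 denser regions of the same genes, 110 (83.3%) were lower, with a median difference of -0.526.

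Col3a1, a fibrillar collagen gene, had the lowest level in PDGFRα+ of any cytosine-poor region (0.0286 against 0.662 in CD137+). Col1a2, which encodes a chain of type I collagen, had 0.106 against 0.684, and Col5a1 had 0.208 against 0.784. Among laminin genes of the basement membrane, Lama4 had 0.0740 against 0.697, Lama2 0.163 against 0.825 and Lamc1 0.214 against 0.839. Timp2 had 0.114 and 0.0921 against 0.769 and 0.942. Fbn1, the gene of fibrillin-1, had 0.152 against 0.792, and Vcan, a large proteoglycan gene, 0.216 against 0.845. Across the 20 regions the PDGFRα+ level ran from 0.0286 to 0.289 and the CD137+ level from 0.645 to 0.942. Over all 1087 lower cytosine-poor regions the upper quartile in PDGFRα+ was 0.263 and the lower quartile in CD137+ was 0.765. The median difference of the 20 regions (-0.627) was near the -0.616 of all lower cytosine-poor regions. Both of their median levels were below, at 0.133 and 0.776 against 0.196 in PDGFRα+ and 0.826 in CD137+. Adamtsl1, Dcn, Timp2 and Ogn led the list by the rule, and the other genes here were named after their values were seen.

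**Figure D5:**
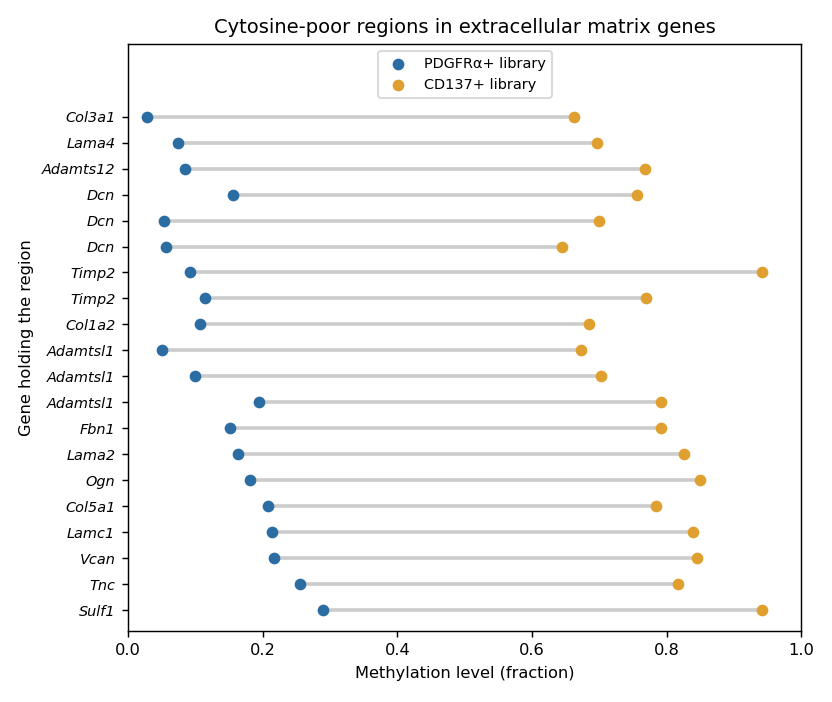
Each line is a cytosine-poor region in a gene of the extracellular matrix list, joining its methylation level (fraction, horizontal axis) in the PDGFRα+ library (blue) and in the CD137+ library (orange). All 20 regions are lower in PDGFRα+, from 0.0286 in Col3a1 to 0.289 in Sulf1.

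Transcription factor genes of mesenchyme and fat development were near the background in direction. Of 51 genes 44 had a region of some kind and 13 a cytosine-poor one, 9 mostly lower and 4 mostly higher. In these 13 genes, 14 of 18 cytosine-poor regions were lower. So were 81.6% of all cytosine-poor regions in protein-coding spans and 79.4% of the denser regions of the list. Among the lower genes were Zbtb20, Tshz2 (0.214 and 0.767 on average over 2 regions) and Nfia (0.358 and 0.631 over 2). In Nfia 1 of the 2 regions was nearly equal in the libraries (0.476 against 0.531 over 4 cytosines). The higher genes were Tcf4 (0.948 in PDGFRα+ and 0.350 in CD137+), Zfhx3, Foxp2 and Glis1, named after their values were seen. Glis1 was higher by little (0.609 against 0.5195). These regions were 3.99% of the 451 in the list, near the background of 4.42%.

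Adhesion and synapse genes, many of them very long, held cytosine-poor regions that were all lower. Of 55 genes 52 had a region of some kind and 8 had a cytosine-poor one, 8 of 297 regions (2.69%). Over all protein-coding spans the share was 4.42%, and with 8 regions the gap is not read as a shortage. Over all cytosine-poor regions in protein-coding spans 81.6% were lower, and so were 88.2% of the 289 denser regions of these genes. Examples were Robo2, a guidance receptor gene (0.207 in PDGFRα+ and 0.875 in CD137+), Sema3a (0.0530 and 0.650), Cntn5 (0.419 and 0.952) and Cntnap5a (0.250 and 0.916). Ion channel and receptor genes had 4 of 119 regions (3.36%), in 4 of 38 genes and all lower. They lay in Trpc4 (0.441 and 0.977), Kcnh7 (0.246 and 0.847), Trpm3 (0.115 and 0.672) and Cacna1c (0.399 and 0.752). Among the 115 denser regions of this list 87.0% were lower too.

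In growth factor, TGF-beta and Wnt signalling, 6 of 56 genes held 7 cytosine-poor regions among 182 (3.85%), 6 of them lower. Denser regions of this list were lower in 82.9% of 175. Smad3, a TGF-beta signal transducer, had 1 of each direction (0.231 against 0.910, and 0.952 against 0.413). Tgfbr3, a TGF-beta co-receptor gene, had 0.169 against 0.818, and Ldlrad4, an inhibitor of this pathway, 0.177 against 0.836. Bmp6 had 0.414 against 0.914.

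Hippo and TEAD genes had 5 of 80 regions (6.25%), in 4 of 28 genes and all lower. Their 75 denser regions were lower in 73.3%. The 5 lay in Wwc2 (0.234 and 0.867 on average over 2 regions), Amotl2 (0.173 and 0.762), Amotl1 (0.153 and 0.923) and Vgll4 (0.161 and 0.833), whose products act on YAP or TEAD. Tead1, the gene named in the title of the study, held no cytosine-poor region among its 8, which had 2.75 to 15.8 cytosines per 100 bases. The nearest lay 74.7 kb away, outside protein-coding genes, with Parva as its nearest one (0.170 against 0.895).

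Glucocorticoid response genes held 2 of 46 regions, both lower, where 70.5% of the 44 denser regions were lower. They lay in Hsd11b1, which encodes the enzyme that regenerates active glucocorticoid (0.163 and 0.795), and in Klf9, a glucocorticoid-induced factor gene (0.244 and 0.822). Adipocyte and thermogenic genes held none among 57 regions in 17 of the 36 genes, against a share of 4.42% over all protein-coding spans. Pdgfra, the gene of the sorting marker, held none either, and its single region had 5.41 cytosines per 100 bases. Tnfrsf9, which encodes CD137, held no region of any kind.

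Marker genes of other cell types were few but did not all share the main direction. Of 30 leukocyte genes 24 had a region of some kind and 6 held 1 cytosine-poor region each, 3 higher and 3 lower in PDGFRα+. Ikzf1, Dock10 (0.957 in PDGFRα+ and 0.410 in CD137+) and Inpp5d (0.808 and 0.171) were higher, while Arhgap15 (0.190 and 0.905), Dock8 (0.264 and 0.839) and Dock2 (0.414 and 0.927) were lower. Inpp5d and Dock2 were named after their values were seen. These were 5.17% of the 116 regions in the list. Of 20 endothelial genes 14 had a region of some kind and 2 a cytosine-poor one, both higher. These genes were Erg, an endothelial transcription factor gene (0.894 and 0.234), and Cdh5, the gene of VE-cadherin (0.883 and 0.254). Of 18 mural genes 2 held 3 such regions of 31, all lower, in Prkg1 (0.287 and 0.807 on average) and Mylk (0.126 and 0.770). Of 14 mesothelial and epithelial genes Lrrn4 held the single one of 18 (0.203 and 0.896). In the denser regions of these genes 65 of 110 leukocyte, 21 of 42 endothelial, 23 of 28 mural and 15 of 17 mesothelial and epithelial regions were lower. Over all other regions in protein-coding spans 25.1% were higher. How far other cell types in either library bear on these levels was not tested.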

How the data were processed

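Whole-genome bisulfite sequencing compared 1 CD137+ and 1 PDGFRα+ library. The table used was made by the authors. Its deposited methylation level per library is a fraction, and its deposited area statistic is a signed score. Submitters' processing notes name mm10. How reads were aligned, regions called and coverage filtered is not given in the sources used here, and selection by the caller can shape every share printed.

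Density was the number of cytosines divided by the length. Gene spans, names and gene starts came from RefSeq (GRCm38.p6), matched by position. All 417 symbols of 12 gene lists were found. A gene or list counts regions overlapping the protein-coding span. Runs join regions at most 10 kb apart. The members and lists were chosen with earlier results of these data known. Named genes were Tead1, Pdgfra and Tnfrsf9, per direction the 8 regions of highest absolute statistic and the 5 of highest absolute difference in named genes, the 8 genes with most regions, the 5 tightest runs and up to 4 members of each list. Others were named after their values were seen. Base composition over whole regions was not computed. CpGs were counted in gene start windows. No test was made. Intervals were checked on simulated counts, and overlaps against a direct search on a sample of the real regions. Software was matplotlib 3.10.9, pandas 2.3.3, numpy 2.4.6 and scipy 1.17.1 under Python 3.11.15. Gene starts and their windows were not used on chromosome 18. A gene that the rule names is not reported here.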

Additional observations from a re-analysis of the deposited data

How the results depend on the processing

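The direction of the median difference was the same under every alternative run, and 32 of 55 alternative values stayed inside the 95% interval of the value given. The share higher in PDGFRα+ (16.4%) left it only when the absolute area statistic had to exceed the median of all autosomal regions, at 12.4%. The median difference (-0.594) was -0.579 below 2.5 cytosines per 100 bases, -0.625 with larger statistics and -0.607 with differences of at least 0.5. The share with a difference of at least 0.5 (89.4%) was 85.6% below 1.5 and 86.8% below 2.5 per 100, 91.4% with at least 5 cytosines and 96.1% with larger statistics. It was 55% at a threshold of 0.6 and 96.8% at 0.4. The share in protein-coding spans (49.6%) was 52.9% with larger statistics and 58.7% with 10 kb on either side. The share within 10 kb of another cytosine-poor region (3.31%) was 0.489% and 7.34% below 1.5 and 2.5 per 100, 1.65% with larger statistics and 2.43% at 300 bases or more. It was 2.08% within 5 kb and 10.2% within 50 kb. The median length (414.5 bases) was 527 and 356 below 1.5 and 2.5 per 100, 481 with at least 5 cytosines, 666 with larger statistics and 504.5 at 300 bases or more, which follows from these limits. Leaving out the regions below 1 cytosine per 100 bases, an alternative added after seeing the data, kept direction and size (16.2% higher, median -0.594, 90.5% past 0.5). No paired analysis was possible because each group has 1 library. Depth is not known, so levels over 4 to 6 cytosines may rest on few reads.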

Other observations

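Chromosome X, which the rule leaves out, had a larger share of regions under 2 counted cytosines per 100 bases than the autosomes. They were 42 of its 365 regions (11.5%, 95% Wilson interval 8.63 to 15.2), against 4.68% on chromosomes 1 to 19. Of these 42, 35 were lower and 7 higher in PDGFRα+, with median levels of 0.213 in PDGFRα+ and 0.869 in CD137+. Among autosomes the share ran from 3.36% on chromosome 18 (35 of 1042) to 5.99% on chromosome 1 (117 of 1954), and lower regions prevailed on each of the 19, with the share higher between 11.3% on chromosome 6 and 25.6% on chromosome 19.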
